A study of Mus musculus with 12 samples.

Results

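The 10 genes described here were grouped as genes of macrophages that enter an injured tissue or take up lipid. They are Trem2, Gpnmb, Cd14, Clec7a, Lyz1, Cd68, Msr1, Ms4a6b, Csf1r and Mpeg1. Not all are particular to such cells, and lysozyme is also counted below among general macrophage markers. The 10 genes were chosen by name, taking every gene probe that carries one of these names in the scanner files, and accepting the older name Lyzs for Lyz1. This gave 18 probes for the 10 genes, out of 14952 gene names that could be tested on these arrays. Liver RNA of Abcb4(-/-) mice was hybridised together with liver RNA of Abcb4(+/+) mice on 12 Agilent arrays in 2 colours, so every value is a ratio of knockout to wild type within an array. Abcb4 moves phospholipid into bile, and its loss in mice inflames and scars the bile ducts, which is why the strain models sclerosing cholangitis. The knockout mice had eaten cholic acid (CA), given to increase disease activity, or ursodeoxycholic acid (UDCA), given to decrease it, for 9 weeks. Each diet had 6 arrays from 5 livers without pooling, the knockout being labelled with Cy5 on 3 of them and with Cy3 on 3, and 1 array repeats a liver in the other dye. There was no knockout group without a bile acid, so what the gene's loss and what the diet contributed cannot be told apart, and the sources used here do not give the wild-type diet, the doses, or the sex, strain and age of the mice.

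Macrophages of the liver come from resident Kupffer cells and from blood monocytes that enter when the tissue is injured. Entering cells carry receptors that sense lipid, sugar and bacterial patterns, and cells that have taken up lipid switch on a programme that depends on the receptor TREM2. Csf1r, the receptor for the growth factors CSF1 and IL-34, keeps macrophages alive, whereas Cd68, Mpeg1, lysozyme and Gpnmb serve the lysosome and phagosome.

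The check of the targeted gene and of array quality came first. The brighter Abcb4 probe, A_51_P249118, gave a log2 ratio of -0.73 ± 0.21 in CA-fed knockout liver and -1.28 ± 0.21 in UDCA-fed knockout liver, and it was higher than wild type on 1 of 6 arrays of each diet. It was saturated in wild type on 3 CA and 2 UDCA arrays and in the knockout on 1 of each. Abcb4 probe A_52_P223194 was lower on all arrays, at -2.73 ± 0.21 and -1.77 ± 0.21 for CA and UDCA. Which exons the deletion removes, and so whether these probes test it, was not analysed here. The share of spots well above background ran from 41.6% to 68.4% per array in the green channel, and from 31.6% to 62.4% in the red. On UDCA arrays 4 and 5, where wild type was in red, the red share was 33.0% and 31.6%, and for many macrophage probes wild type was above background on 4 of the 6 UDCA arrays. Log2 ratios are given with the standard error of a limma fit, with p-values adjusted by Benjamini-Hochberg over the 21688 tested probes and called under 0.05. The brightest tested probe stands for a gene. Nothing says that livers of a group came from separate cages, and 1 pair of arrays per diet shares a liver, so the p-values are somewhat too small. These are whole-tissue samples, in which more cells of a type and more RNA per cell cannot be told apart.

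The probes are shown where the answer depends on which one is read. Both Trem2 probes and both Gpnmb probes are given, because they differed in brightness or detection. The probes named Lyzs carry an accession that the RefSeq table gives to Lyz2, the lysozyme of macrophages, and not to Lyz1. Lyz1 itself is on the array under the older name Lzp-s, outside the choice by name, and it is set beside them. All are 60-base probes, printed 5′ to 3′ as the scanner files give them, in mm7. The longest run of bases shared by any 2 of the 3 lysozyme probes was 8.
Trem2 A_51_P269546 (chr17:46496865-46496924, + strand): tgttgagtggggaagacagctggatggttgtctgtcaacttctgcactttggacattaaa
Trem2 A_51_P269549 (chr17:46496563-46496699, + strand): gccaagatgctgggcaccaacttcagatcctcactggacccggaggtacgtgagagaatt
Gpnmb A_51_P438967 (chr6:49016437-49016496, + strand): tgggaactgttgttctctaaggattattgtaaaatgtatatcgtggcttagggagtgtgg
Gpnmb A_52_P417819 (chr6:49017163-49017222, + strand): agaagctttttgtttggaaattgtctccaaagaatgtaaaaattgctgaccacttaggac
Clec7a A_51_P246653 (chr6:129485033-129485092, - strand): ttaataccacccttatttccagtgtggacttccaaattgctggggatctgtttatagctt
Ms4a6b A_51_P422300 (chr19:11210020-11210079, + strand): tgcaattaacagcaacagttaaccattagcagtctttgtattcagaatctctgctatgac
Lyz2 A_52_P238027 (chr10:116785279-116785338, - strand): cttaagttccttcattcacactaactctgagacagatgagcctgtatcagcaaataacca
Lyz2 A_51_P321150 (chr10:116790004-116790063, - strand): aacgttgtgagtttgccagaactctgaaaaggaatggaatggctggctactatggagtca
Lyz1 A_52_P582059 (chr10:116796083-116796142, - strand): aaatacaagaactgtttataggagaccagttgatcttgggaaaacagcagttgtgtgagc
Trem2 A_51_P269549 covers 137 bases of genome for its 60 bases, so it joins 2 separate stretches. Whether a probe lies in a coding exon or an untranslated region was not analysed here.

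Macrophage genes were higher in knockout than in wild-type liver with both bile acids. With CA, 8 of the 10 genes rose and 0 fell, against 38.2% of all tested genes called higher and 22.2% called lower. With UDCA, 9 rose and 0 fell, against 17.5% called higher and 8.77% called lower. The median log2 ratio of the 10 genes was 1.54 with CA, where that of all tested genes was 0.11, and 1.14 with UDCA, where that of all tested genes was 0.04. Counted by probe, 15 of 17 tested member probes rose with CA and 12 with UDCA, against 34.2% and 15.1% of all tested probes. Gpnmb and Lyz2 with CA, and Csf1r with UDCA, did not pass the test on their brightest probe. Gpnmb, among the 9 with UDCA, and Csf1r probe A_52_P570471, among the 15 with CA, were bright enough to be tested only in knockout. Without UDCA arrays 4 and 5 the counts were 9 with CA and 8 with UDCA. Median centring of the arrays, used instead of loess, called 4939 probes higher and 1202 lower for CA, where loess called 7416 and 5503, and 1866 higher and 110 lower for UDCA, where loess called 3266 and 1820. In that setting the median of all probes lay at 0.23 with CA and 0.29 with UDCA, and 8 and 6 of the 10 genes were called.

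**Figure D1:**
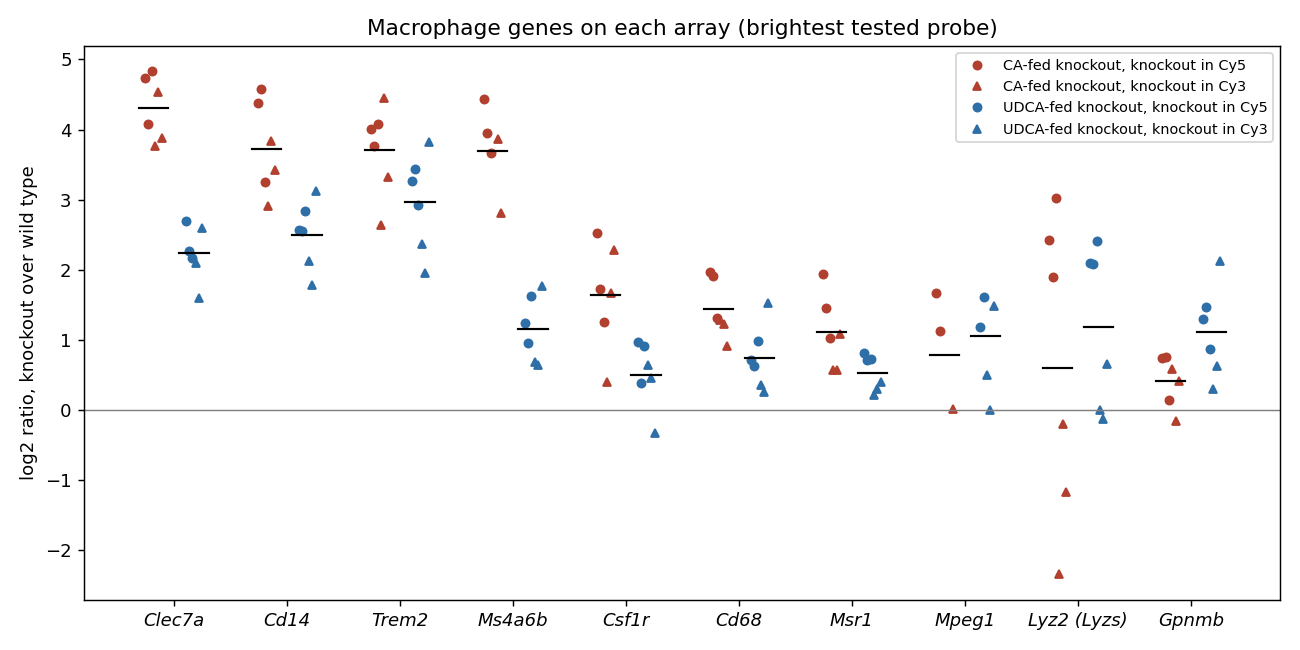
Log2 ratio of knockout over wild type on every array for the brightest tested probe of each of the 10 genes. Circles are arrays with the knockout in Cy5 and triangles those with it in Cy3, red for CA and blue for UDCA, and black bars are fitted means. Clec7a and Ms4a6b show no overlap between the diets, and the circles and triangles of Lyz2 stand apart.

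Of the receptors, Clec7a, the lectin that binds fungal and plant beta-glucan, rose with both diets, and its probe was saturated in the knockout on 1 CA array. Clec7a read 4.73, 4.08, 4.83, 3.77, 4.53 and 3.88 on CA arrays 1 to 6 and 2.70, 2.27, 2.16, 2.09, 1.60 and 2.59 on UDCA arrays 1 to 6. Every CA array was above every UDCA array, which held for 7.11% of tested genes with 12 values. The fitted ratios were 4.31 ± 0.15 with CA (adjusted p = 2.17e-10) and 2.24 ± 0.15 with UDCA (adjusted p = 7.83e-08), or 19.8-fold and 4.71-fold over wild type. In log2 intensity, Clec7a ranged from 11.1 to 13.5 in CA-fed knockout and from 10.7 to 11.7 in UDCA-fed knockout, against 7.03 to 9.52 in wild type on the CA arrays and 8.56 to 9.59 in wild type on the UDCA arrays. Both knockout ranges therefore lay above both wild-type ranges, and the knockout ranges overlapped each other.

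Trem2, the lipid-sensing receptor on which the lipid-associated programme depends, rose with both diets. Its brighter probe, A_51_P269546, read 4.01, 3.77, 4.08, 2.63, 4.46 and 3.33 on the CA arrays and 3.27, 3.44, 2.93, 2.37, 1.95 and 3.82 on the UDCA arrays. The diets overlapped, since UDCA array 6 was higher than 3 of the CA arrays. The fit gave 3.71 ± 0.22 with CA (adjusted p = 3.59e-09) and 2.96 ± 0.22 with UDCA (adjusted p = 2.18e-07). This probe was saturated in the knockout on 3 CA arrays. The dimmer Trem2 probe, A_51_P269549, saturated on none, gave 2.07 ± 0.20 with CA (adjusted p = 4.28e-07) and 1.03 ± 0.20 with UDCA (adjusted p = 0.00134), and its wild-type signal was above background on 1 of 6 UDCA arrays.

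Cd14, which hands bacterial lipopolysaccharide to the receptor TLR4, rose with both diets. Cd14 probe A_51_P172853 (mm7, chromosome 18, 37101516 to 37101575) read from 2.91 to 4.57 on the CA arrays, with a median of 3.62, and from 1.79 to 3.13 on the UDCA arrays, with a median of 2.56. The 2 highest CA arrays were 1 and 2, at 4.37 and 4.57, and the lowest UDCA array was 5. The knockout was saturated on 1 CA array. The fitted ratios were 3.73 ± 0.19 with CA (adjusted p = 8.74e-10) and 2.5 ± 0.19 with UDCA (adjusted p = 2.18e-07).

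Msr1, the class A scavenger receptor that takes up modified lipoprotein, rose less, and its 3 probes gave different answers with UDCA. The brightest, A_51_P404846 (mm7, chromosome 8, 38396605 to 38398766), read 1.94, 1.45, 1.03, 0.57, 0.57 and 1.09 with CA and 0.81, 0.71, 0.72, 0.21, 0.29 and 0.40 with UDCA. All 12 arrays were above 0, and the diets overlapped. It gave 1.11 ± 0.12 (adjusted p = 1.08e-06) and 0.52 ± 0.12 (adjusted p = 0.00376). Probes A_52_P607128 and A_52_P127130 rose with CA, at 1.38 and 0.87. With UDCA they read 0.41 (adjusted p = 0.0771) and 0.23 (adjusted p = 0.131) and were not called, although above 0 on 6 of 6 arrays each.

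Csf1r, the growth factor receptor, rose with CA. Its brightest probe, A_51_P365885 (mm7, chromosome 18, 61520169 to 61520228), read 2.53, 1.73, 1.26, 0.41, 1.67 and 2.28 with CA and 0.97, 0.39, 0.92, 0.63, 0.45 and -0.33 with UDCA. CA array 4 was the low one of its group, and UDCA array 6 was the only array of the 12 below 0. The fit gave 1.65 ± 0.21 with CA (adjusted p = 7.97e-06). With UDCA it gave 0.51 ± 0.21 (adjusted p = 0.0968), which became 0.64 and was called (adjusted p = 0.0487) without UDCA array 6. Csf1r probe A_52_P602091 gave 1.31 ± 0.16 and 0.22 ± 0.16 (adjusted p = 0.363), and A_52_P570471 gave 0.53 ± 0.17 with CA. This last probe was tested only because knockout was above background on 5 CA arrays, both channels being below it on all UDCA arrays. It read 1.12 and 1.37 on CA arrays 1 and 2 and from 0.06 to 0.31 on the other 4.

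Ms4a6b, a membrane-spanning protein of the MS4A family found on myeloid cells, showed the widest gap between the diets. It read 4.44, 3.96, 3.66, 3.86 and 2.80 on CA arrays 1, 2, 3, 5 and 6, array 4 being set missing by an outlier flag. On UDCA arrays 1 to 6 it read 1.24, 0.95, 1.63, 0.69, 0.65 and 1.77. Every measured CA array was above every UDCA array. Over tested genes with 12 values this held for 7.11%, a share that leaves out Ms4a6b, which had 11. The fitted ratios were 3.70 ± 0.19 with CA (adjusted p = 2.50e-09) and 1.15 ± 0.18 with UDCA (adjusted p = 0.000247), or 13-fold and 2.23-fold.

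Among lysosome and phagosome genes, Cd68, a heavily glycosylated protein of the lysosomal membrane, rose moderately. Cd68 probe A_51_P120470 (mm7, chromosome 11, 69746386 to 69746445) read 1.96, 1.91, 1.32, 1.28, 1.22 and 0.91 with CA and 0.72, 0.63, 0.98, 0.36, 0.26 and 1.53 with UDCA. UDCA arrays 3 and 6 reached into the CA range, and all 12 arrays were above 0. The fit gave 1.43 ± 0.15 with CA (adjusted p = 1.47e-06) and 0.75 ± 0.15 with UDCA (adjusted p = 0.00237).

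Mpeg1, which encodes a pore-forming protein of the phagosome, rose with both diets on both of its probes. The bright probe, A_51_P390538 (mm7, chromosome 19, 12145020 to 12145079), kept values on only 3 CA arrays (1.67, 1.12 and 0.02) and 5 UDCA arrays (from 0.01 to 1.61), the others being set missing by outlier flags. It was saturated in the knockout on 3 arrays of each diet. It gave 0.78 ± 0.26 with CA (adjusted p = 0.0217) and 1.05 ± 0.20 with UDCA (adjusted p = 0.00252), and without CA array 1 the CA value of 0.57 was no longer called (adjusted p = 0.134). The dimmer Mpeg1 probe, A_52_P180373, was measured on 12 arrays, above 0 on each, and gave 0.90 ± 0.17 (adjusted p = 0.000277) and 0.54 ± 0.17 (adjusted p = 0.0277).

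Gpnmb, a transmembrane glycoprotein that lipid-loaded and lysosome-stressed macrophages make, had a higher fitted ratio with UDCA than with CA, as had the bright probes of Lyz2 and Mpeg1. A_51_P438967 read 0.74, 0.76, 0.14, 0.59, -0.16 and 0.42 with CA and 1.3, 1.47, 0.88, 0.30, 0.62 and 2.13 with UDCA. Values on the CA arrays lay nearer 0 and those on the UDCA arrays spread wider, with UDCA array 6 the highest, and the diets overlapped. With CA the ratio was 0.42 ± 0.19 (adjusted p = 0.0693), which was called without CA array 5 (0.52, adjusted p = 0.0474) and, at the same 0.42, without UDCA array 6 (adjusted p = 0.0118). With UDCA it rose by 1.12 ± 0.19 (adjusted p = 0.000464). Wild type was not well above background on any of the 6 UDCA arrays, where its mean log2 intensity was 7.24 against 8.36 in knockout. Counting wild type at no less than the lowest signal above background on each array gave a bound of 1.95-fold on the mean change. That bound takes no account of the spread between arrays, and the 95% interval of the fitted log2 ratio began at 0.72. On the CA arrays wild type was above background on 2 of 6 and knockout on 5 of 6. A_51_P438967 was therefore tested only because of its knockout channel, above background on 5 CA and 6 UDCA arrays. The other Gpnmb probe, A_52_P417819, was above background on 0 arrays in either channel and was not tested.

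The lysozyme probes differed in how far they depended on the dye. The bright Lyz2 probe, A_52_P238027, read 2.42, 1.89 and 3.02 on the CA arrays with the knockout in Cy5, but -2.35, -0.20 and -1.17 on those with it in Cy3. With UDCA it read 2.10, 2.08 and 2.41 in Cy5 and 0.00, -0.13 and 0.65 in Cy3. The knockout channel was saturated on 5 CA and 3 UDCA arrays, and the dye effect itself was called, at 1.43 (adjusted p = 9.23e-05). A dye effect, here and below, is the distance of each dye orientation from the middle between them, so the orientations lie further apart than its value. The fit gave 0.60 ± 0.26 with CA (adjusted p = 0.0554) and 1.19 ± 0.26 with UDCA (adjusted p = 0.00334). The CA value was called without CA array 4 (0.94, adjusted p = 0.00147) and without UDCA array 6 (0.60, adjusted p = 0.0349), and the UDCA value was not called without UDCA arrays 4 and 5 (1.07, adjusted p = 0.0545).

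The dimmer Lyz2 probe, A_51_P321150, was saturated on no array and showed a dye effect of 0.13 (adjusted p = 0.578). It read 2.61, 3.69, 2.01, 1.96, 2.55 and 1.98 with CA and 1.35, 1.2, 1.13, 0.99, 0.91 and 2.00 with UDCA, above 0 on 12 arrays. Its fitted ratios were 2.47 ± 0.19 (adjusted p = 5.01e-08) and 1.26 ± 0.19 (adjusted p = 0.000198). The Lyz1 probe, A_52_P582059, saturated in the knockout on 3 CA arrays, read from 0.62 to 3.69 with CA and from 2.41 to 2.79 with UDCA. Lyz1, the lysozyme of Paneth cells in the mouse gut, gave 2.55 ± 0.22 (adjusted p = 1.38e-07) and 2.63 ± 0.22 (adjusted p = 6.68e-07). Lyz1 and Lyz2 are close paralogues, so a probe of one may also bind RNA of the other.

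**Figure D2:**
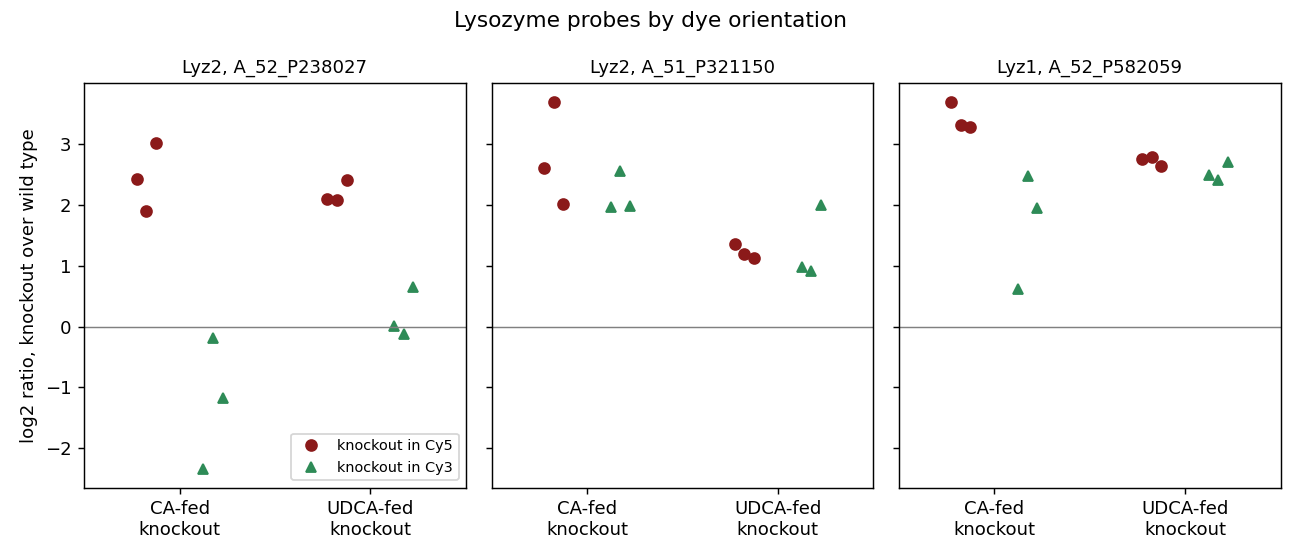
Log2 ratio of knockout over wild type on each array for both Lyz2 probes and the Lyz1 probe, by diet and by the dye of the knockout sample. The bright Lyz2 probe separates by dye, from -2.35 to 0.65 with the knockout in Cy3 and from 1.89 to 3.02 in Cy5, and the dim one does not.

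The difference between the diets was tested as the CA ratio minus the UDCA ratio. The arrays of one diet hold no RNA of the other, so wild type links them, and with doses not given it cannot be said to compare equal amounts of the bile acids, which differ in that CA has a hydroxyl group that UDCA lacks, and another points the other way in UDCA. Of the 10 genes, 6 were higher with CA and 0 lower, against 19.0% and 8.81% of all tested genes, and the members' median difference was 0.72 where that of all tested genes was 0.08. By probe, 11 of 17 were higher, against 16.4% of all tested probes. Ms4a6b (2.54 ± 0.26, adjusted p = 3.71e-05) and Clec7a (2.07 ± 0.21, adjusted p = 2.25e-05) differed most, followed by Cd14 (1.23 ± 0.26, adjusted p = 0.00343), Csf1r (1.14 ± 0.30, adjusted p = 0.0108), Cd68 (0.69 ± 0.22, adjusted p = 0.0303) and Msr1 (0.58 ± 0.16, adjusted p = 0.0167). The other probes of Msr1 were called too (0.97 and 0.65), as was Csf1r probe A_52_P602091 (1.08).

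For the other 4 genes the brightest probe did not pass the test. Trem2 differed by 0.75 (95% interval 0.09 to 1.41, adjusted p = 0.0867) on its bright probe, and by 1.04 ± 0.28 (adjusted p = 0.0134) on the dimmer, unsaturated one. The bright probe was called without CA array 4 (0.94, adjusted p = 0.0368) and without UDCA array 6 (0.996, adjusted p = 0.00899), and it read -0.04 (adjusted p = 0.930) on Agilent's processed signals. Lyz2 differed by -0.58 (interval -1.36 to 0.20, adjusted p = 0.256) on the saturated probe and by 1.21 ± 0.27 (adjusted p = 0.00477) on the other. Mpeg1 gave -0.27 (interval -0.996 to 0.45) and 0.36 (interval -0.14 to 0.86) on its 2 probes, and Lyz1 gave -0.08 (interval -0.74 to 0.58). With saturated values set missing Lyz1 gave 0.70 and was called (adjusted p = 0.0173). Gpnmb gave -0.70 (interval -1.27 to -0.13, adjusted p = 0.0635), and it was called lower with CA without UDCA array 4 (-0.86, adjusted p = 0.0306), without UDCA arrays 4 and 5 (-1.06, adjusted p = 0.0159), on Agilent's processed signals (-1.94, adjusted p = 0.00626) and with median centring (-1.36, adjusted p = 0.0230). With the brightest unsaturated probe of each gene, a setting added after seeing the data, 8 of the 10 genes were called higher with CA. Of these, Cd14 and Clec7a had no unsaturated probe and kept theirs, each saturated in the knockout on 1 CA array.

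**Figure D3:**
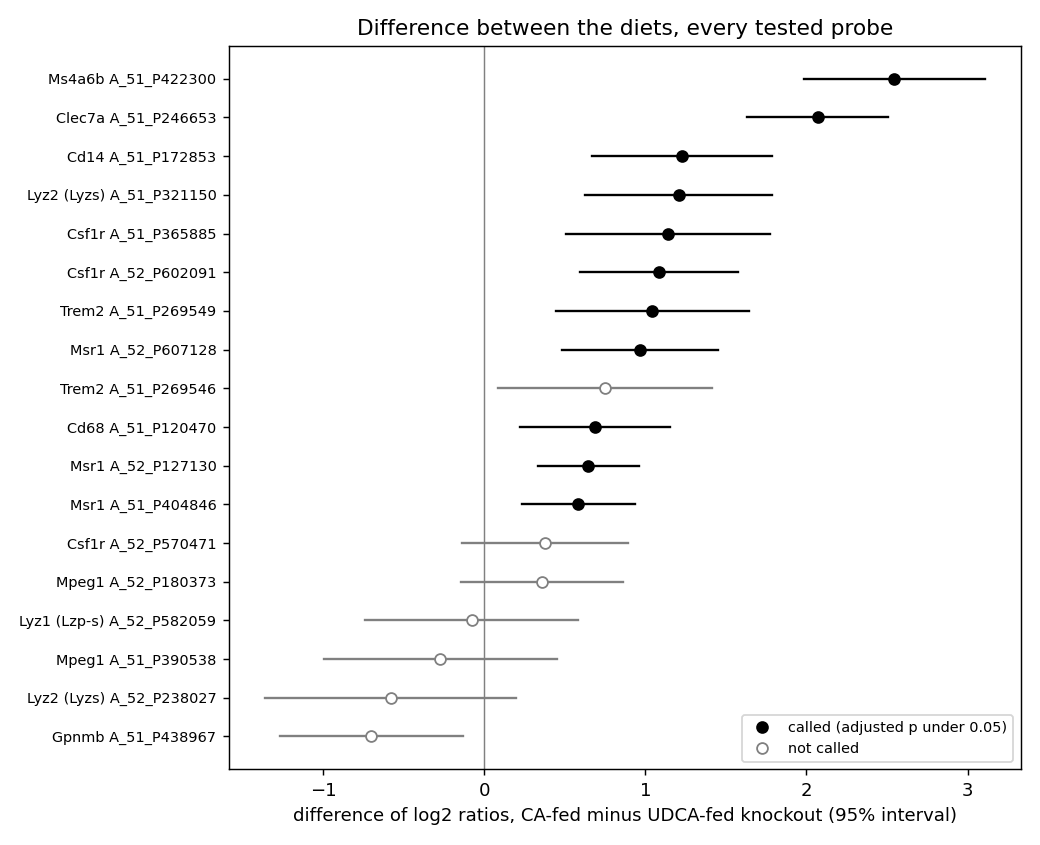
Difference of log2 ratios, CA-fed minus UDCA-fed knockout, with its 95% interval for each of the 17 tested member probes and the Lyz1 probe. Filled points passed an adjusted p of 0.05, and all of these lie right of 0, from 0.58 for Msr1 to 2.54 for Ms4a6b.

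Slides bear on this difference, since 4 CA arrays lay on slides that held CA alone. On slide 3, with 1 CA and 2 UDCA arrays, 6 of 9 measured members were higher with CA, against 58.7% of all tested genes. On slide 4, with 1 CA and 3 UDCA arrays, 7 of 10 were, against 59.2%. Both counts lie near the share over all genes. The CA array of each slide had the knockout in Cy3, while it was in Cy5 on both UDCA arrays of slide 3 and on 1 of the 3 on slide 4, so diet and dye cannot be told apart on slide 3 and are only partly separate on slide 4. The differences on slides 3 and 4 were 2.05 and 1.93 for Clec7a, 2.76 and 1.81 for Ms4a6b, and 1.27 and 1.17 for Cd14. They were 0.996 and 1.61 for Csf1r, 0.55 and 0.38 for Cd68, 1.11 and 0.91 for Trem2, and -1.54 and -0.18 for Gpnmb. The saturated, dye-dependent Lyz2 probe gave -2.28 and -1.93, and Mpeg1 gave -0.68 on slide 4 and had no CA value on slide 3. Msr1 gave -0.19 on slide 3 and 0.68 on slide 4. With the slide as a fixed block and the dye effect kept, Cd68 (0.67, adjusted p = 0.111) and Msr1 (0.63, adjusted p = 0.141) were not called, and Trem2 was (1.58, adjusted p = 0.00482). With median centring 2 of the 10 genes were called higher with CA, Clec7a and Ms4a6b, and Gpnmb was called lower (-1.36, adjusted p = 0.0230). Leaving out UDCA arrays 4 and 5 gave 4 genes called higher, with Cd68 (0.51, adjusted p = 0.187) and Msr1 (0.60, adjusted p = 0.0639) no longer called. Gpnmb was called lower there too (-1.06, adjusted p = 0.0159). Cd68 also lost its call, with adjusted p from 0.0501 to 0.0724, when any of CA arrays 1, 2, 4 and 5 or UDCA arrays 1 to 5 was left out, with the difference between 0.61 and 0.70. On Agilent's processed signals it was 0.20 for Cd68 (adjusted p = 0.469) and 0.44 for Msr1 (adjusted p = 0.149). In all, the Cd68 difference was called in 13 of 28 alternatives.

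The members moved together to different degrees across the 12 arrays. Pearson's correlation of each gene with the mean of the other members that had values on all 12 arrays was 0.85 for Msr1, 0.83 for Cd14, 0.79 for Trem2, 0.78 for Cd68, 0.62 for Clec7a and 0.54 for Csf1r, but 0.31 for Lyz2 and -0.16 for Gpnmb. These 12 points share the contrast between the diets and the dye orientation, and the values are a description. The median ratio per array, over the members with a value on it, ran from 0.93 on CA array 4 to 3.02 on CA array 3. It ran from 0.54 on UDCA array 5 to 1.65 on UDCA array 6. CA array 4 had no value for Ms4a6b and Mpeg1, and CA array 3 none for Mpeg1. The 3.02 was the reading of the dye-dependent Lyz2 probe. Of 13785 other genes with values on all arrays, the 5 whose profile was most like the mean of these 8 members were Nsl1 (r = 0.971), Spats2l (r = 0.962), Tmem273 (r = 0.959), Cerk (r = 0.958) and Elmo1 (r = 0.958).

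The partners of TREM2 and the genes of the lipid-associated programme were mostly higher. For this list and those below, the shares over all tested genes are the background. With CA 38.2% were called higher and 22.2% lower, with UDCA 17.5% and 8.77%, and in the difference 19.0% and 8.81%. Of 28 measured genes in this list, 20 rose and 1 fell with CA (median 1.62), 16 rose and 1 fell with UDCA (median 0.66), and 10 were higher and 1 lower with CA than with UDCA (median 0.32). Apoe and Ctsb were saturated on 12 arrays and Plin2 and Ctsl on 11, with dye effects of 2.66, 1.09, 0.97 and 1.11. None of these was called, and their ratios do not show whether the RNA differed. Fabp5 and Cst7 were not tested. Tyrobp, the adaptor that carries the TREM2 signal, was at 2.17 ± 0.13 with CA (adjusted p = 4.22e-09) and 1.22 ± 0.13 with UDCA (adjusted p = 7.23e-06). With CA the largest changes were those of Ch25h, an enzyme that makes an oxysterol (3.45), Spp1, the matrix protein osteopontin (3.19), and Lgals1, a galectin (3.15). Spp1 is also among the 10 cholangiocyte markers, and its probe was saturated on 8 arrays. With UDCA, Spp1 was at 2.00 and Lgals1 at 2.79, while Ch25h gave 0.34 (adjusted p = 0.593). The 1 gene that fell with both was Mitf, a transcription factor of lysosomal genes, at -0.68 with CA (adjusted p = 0.00823) and -0.62 with UDCA (adjusted p = 0.0323), and the 1 gene lower with CA than with UDCA was Cd36. Both were named after their values were seen. Cd36, a fatty acid and lipoprotein receptor, read from 1.03 to 2.20 with CA and from 2.46 to 3.76 with UDCA. Every CA array was below every UDCA array, which held for 3.12% of tested genes with 12 values. The fitted ratios of Cd36 were 1.49 ± 0.17 and 3.06 ± 0.17 (difference -1.57 ± 0.25, adjusted p = 0.000433).

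Ligands and signalling partners of the receptors were mostly higher. Of 11 measured genes, 8 rose and 0 fell with CA (median 1.21), 6 rose and 1 fell with UDCA (median 0.66), and 7 were higher and 0 lower with CA than with UDCA (median 0.85). The ligands of Csf1r differed: Csf1 rose with CA (1.78 ± 0.19, adjusted p = 1.39e-06) and UDCA (0.66 ± 0.19, adjusted p = 0.0198), and Il34 rose with CA (1.51 ± 0.12, adjusted p = 7.39e-08) but gave 0.09 ± 0.12 with UDCA (adjusted p = 0.651). Among the partners of Cd14, Tlr4 rose with CA (1.13 ± 0.14) and gave 0.39 ± 0.14 with UDCA (adjusted p = 0.0610). Ly96, the co-receptor of TLR4, rose with CA (0.65 ± 0.17, adjusted p = 0.00365) and UDCA (1.02 ± 0.17, adjusted p = 0.000377). Lbp, a protein that hepatocytes secrete to carry lipopolysaccharide, gave 0.20 ± 0.16 with CA (adjusted p = 0.287) and rose with UDCA (0.73 ± 0.16, adjusted p = 0.00297). Tlr2 (3.11 with CA and 1.90 with UDCA) and Cd44 (2.18 and 0.98) rose with both. The 1 gene that fell with UDCA was Sdc4, a syndecan proteoglycan, at -1.16 (adjusted p = 0.000432), named after its value was seen.

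Relatives of Msr1 and Ms4a6b showed how far the members' direction was shared. Among 12 other scavenger receptors, 6 rose and 3 fell with CA (median 0.40), 4 rose and 3 fell with UDCA (median 0.08), and 4 were higher and 2 lower with CA than with UDCA. Scara3 (3.37 with CA and 1.0 with UDCA) and Cxcl16, a membrane-bound chemokine that also binds oxidised lipid (2.93 and 1.3), rose, and Marco, a receptor of resident macrophages, fell (-2.29 and -0.67). In the Ms4a family 6 other genes were measured and 11 not tested. With CA 5 of them rose and 0 fell (median 1.04), with UDCA 2 rose and 0 fell (median 0.39), and 3 were higher with CA than with UDCA. Ms4a7 was at 3.69 with CA and 2.25 with UDCA, Ms4a6d at 2.29 and 0.84, and Ms4a6c at 1.35 and 0.43, the last not called (adjusted p = 0.0690).

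Genes of incoming monocytes rose and those of resident Kupffer cells fell with CA. Of 18 measured monocyte genes, 16 rose and 0 fell with CA (median 1.83), 10 rose and 0 fell with UDCA (median 0.60), and 12 were higher and 0 lower with CA than with UDCA (median 1.04). The calcium-binding proteins S100a4 and S100a6 rose with both, by 3.54 and 3.46 with CA and by 2.04 and 2.30 with UDCA. Ccr2, the receptor through which monocytes follow CCL2, was at 4.15 and 1.46. Of 19 general macrophage markers, Lyz2 among them, 16 rose and 1 fell with CA (median 1.79), and 13 rose and 3 fell with UDCA (median 0.74). Ptprc, the leukocyte antigen CD45, was at 2.99 and 1.12, Adgre1, a macrophage surface receptor, at 2.61 and 1.15, and Fcer1g, an Fc receptor chain, at 2.55 and 1.10. Among the 16 measured Kupffer cell markers, 0 rose and 11 fell with CA (median -0.49), 3 rose and 2 fell with UDCA (median -0.01), and 0 were higher and 7 lower with CA than with UDCA (median -0.46). Clec4f was at -3.37 ± 0.24 with CA (adjusted p = 2.10e-08) and -0.18 ± 0.24 with UDCA (adjusted p = 0.658), and Cd5l was at -2.19 with CA and 0.58 with UDCA.

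**Figure D4:**
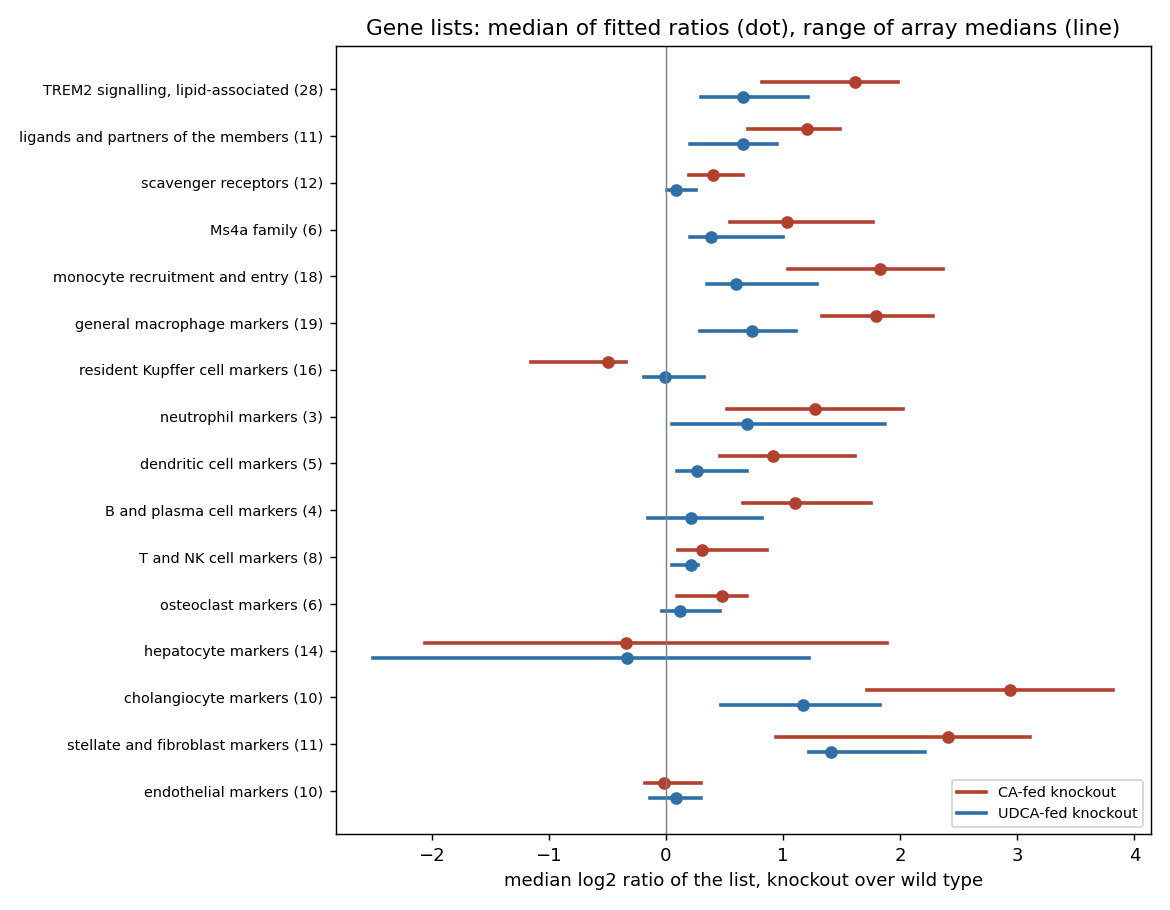
Median log2 ratio of knockout over wild type for each gene list with more than 2 measured genes, CA in red above UDCA in blue. Dots are medians of the fitted ratios, lines span the medians on the 6 arrays of a diet, and the number of measured genes is in parentheses. The CA median was below 0 for Kupffer cell (-0.49), hepatocyte (-0.34) and endothelial (-0.02) markers.

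Markers of several other cell types also rose, and their part in the members' ratios was not tested. Of all tested genes, 38.2% were called higher and 22.2% lower with CA, and 17.5% and 8.77% with UDCA. All 10 of 10 cholangiocyte markers rose with CA (array medians from 1.72 to 3.82) and 6 with UDCA (0.47 to 1.83), among them Sox9 (3.69 and 1.26) and Epcam (3.57 and 1.41). Of 11 stellate cell and fibroblast markers, 11 rose with CA (array medians from 0.94 to 3.11) and 10 with UDCA (1.22 to 2.21), with Lum at 3.82 and 2.73 and Col1a1 at 3.08 and 3.54. Neutrophil markers were mostly not measured, with 10 of 13 not tested. Of the other 3, 2 rose with CA (array medians from 0.52 to 2.02) and 1 with UDCA (0.06 to 1.87), S100a9 being at 1.53 and 1.16 and S100a8 at 1.27 and 0.69 (adjusted p = 0.0542). All 5 measured dendritic cell markers rose with CA (array medians from 0.46 to 1.62) and 2 with UDCA (0.10 to 0.69), with Clec10a at 2.65 and 1.45 and Itgax at 1.54 and 1.21, and 5 were not tested. Of 4 measured B and plasma cell markers, 3 rose with CA (0.66 to 1.75) and 1 with UDCA (-0.15 to 0.82), with Blnk at 2.19 and 1.09 and Jchain at 1.36 and 0.06 (adjusted p = 0.827), and 5 were not tested.

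The remaining lists were those of T and NK cells, osteoclasts, mast cells, endothelium and hepatocytes. The endothelial counts, and the T and NK cell and osteoclast counts with UDCA, lay near the shares over all tested genes. Of 8 T and NK cell markers, 4 rose and 1 fell with CA (array medians from 0.10 to 0.86), and 1 rose with UDCA (0.06 to 0.27), with Lck at 1.06 and 0.23 (adjusted p = 0.257) and Cd3g at 0.80 and 0.31. On the CA arrays Cd3e read from -0.62 to -0.03 and Cd3d from -0.13 to 0.59, both named after their values were seen. Osteoclasts share the monocyte lineage, and 4 of 6 of their markers rose and 1 fell with CA (array medians from 0.10 to 0.69) and 1 rose with UDCA (-0.04 to 0.46), with Dcstamp at 1.99 and 0.33 (adjusted p = 0.247) and Ctsk at 1.72 and 1.05. On the CA arrays Acp5 read from -1.50 to -0.15 and Ocstamp from -0.50 to 0.36, also named after their values were seen. The 1 mast cell marker measured gave 0.11 with CA and -0.11 with UDCA, and 8 were not tested. Of 10 endothelial markers 3 rose and 3 fell with CA (array medians from -0.18 to 0.30), and 1 rose and 1 fell with UDCA (-0.13 to 0.30), with Vwf at 1.03 and 0.71 and Oit3 at -0.97 and -0.25 (adjusted p = 0.271). Among 14 hepatocyte markers 0 rose and 2 fell with each diet, Tdo2 being at -1.12 with CA and -0.37 with UDCA (adjusted p = 0.312) and Ttr at -0.44 and -0.67. Their array medians ran from -2.06 to 1.88 with CA and from -2.5 to 1.22 with UDCA. Of these 14 probes, 8 were saturated on all 12 arrays, with dye effects from 1.07 to 2.97, so their ratios do not show whether hepatocyte RNA differed.

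Promoters are shown because several members moved together across the arrays. For 7 of the 10 genes, a window from 250 bases before to 50 after the start was taken from the RefSeq table (GRCm38.p6). Lyz2 stood for the lysozyme. Cd14 and Csf1r were left out of the search, and the table held no window for Msr1. The core of the PU box, the site of the myeloid transcription factor PU.1, was searched as GAGGAA on both strands (TTCCTC on the other), with no overlap with another motif searched. It was present in 3 of the 7 genes, Trem2, Clec7a and Cd68, and in 28.3% of all 32851 promoters in the table. The letters CATGTG and CACGTG, bound by the MITF and TFE family that acts on lysosomal genes, were in 0 of the 7 windows, and in 14.2% and 7.15% of all promoters. A match is a description of these letters only, and capitals mark the PU box.
Trem2 (GRCm38.p6, chr17:48346151-48346450, + strand): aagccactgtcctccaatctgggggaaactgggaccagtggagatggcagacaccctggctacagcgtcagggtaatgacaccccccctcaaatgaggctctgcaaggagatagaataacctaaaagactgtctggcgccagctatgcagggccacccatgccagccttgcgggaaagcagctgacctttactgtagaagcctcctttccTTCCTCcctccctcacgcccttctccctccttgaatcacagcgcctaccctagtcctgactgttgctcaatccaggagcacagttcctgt
Clec7a (GRCm38.p6, chr6:129472730-129473029, - strand): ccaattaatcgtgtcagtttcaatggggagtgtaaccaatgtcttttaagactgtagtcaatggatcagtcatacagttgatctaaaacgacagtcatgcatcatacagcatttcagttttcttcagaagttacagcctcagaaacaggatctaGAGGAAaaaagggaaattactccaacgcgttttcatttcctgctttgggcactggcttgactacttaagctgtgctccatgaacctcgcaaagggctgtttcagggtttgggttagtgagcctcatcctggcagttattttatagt
Cd68 (GRCm38.p6, chr11:69666121-69666420, - strand): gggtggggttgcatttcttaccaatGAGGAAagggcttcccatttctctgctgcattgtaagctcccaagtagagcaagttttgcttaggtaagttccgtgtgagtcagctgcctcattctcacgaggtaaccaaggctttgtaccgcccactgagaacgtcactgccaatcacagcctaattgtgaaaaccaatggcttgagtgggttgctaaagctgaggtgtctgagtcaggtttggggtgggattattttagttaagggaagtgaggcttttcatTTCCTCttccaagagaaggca
Of these 3 genes, Clec7a and Cd68 were called in the test between the diets, and Ms4a6b, with the widest gap between the diets, held none of the letters searched in its window.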

How the data were processed

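RNA from livers of Abcb4(-/-) mice fed CA or UDCA and of Abcb4(+/+) mice was measured on 12 arrays on 5 slides, which were also 5 scans. Per the file headers, Feature Extraction 9.5.3 gave for each spot a mean intensity and a median background intensity, with flags for outliers, saturation and signal above background. The same files hold processed intensities, which the authors' scanner software had background-subtracted and dye-normalized. The deposited series table holds log2 ratios, and the sources used here do not give their normalization. Its row numbers follow the order of spots in the scanner files, by which it correlated with the processed ratios with an absolute Pearson correlation between 0.775 and 0.971 over spots above background in both dyes. Its column medians lay between -0.046 and 0.049, and the CA columns ran as wild type over knockout, so they were turned round.

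Background correction by normexp (offset 50) was followed by loess normalization of each array, control spots having weight 0. The tools were limma 3.58.1, run in R 4.3.3, and the data.table package, version 1.17.8. Of 45018 spots 1639 were controls, and the rest gave 41174 probes after averaging. Outlier flags removed 2399 of the 260256 values. Probes entered the tests if well above background on at least 5 of the 6 arrays in either channel of either diet. CA, UDCA and a dye effect were fitted together on log2 ratios of knockout over wild type, and limma's adjusted p-values were called under 0.05. The fit was tested on simulated data with known changes. Bounds for a channel below background on all arrays of a group used log2 intensities after loess and Aquantile and can carry dye bias. The number of arrays limits the precision.

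Symbols came from the RefSeq table (GRCm38.p6), by accession for 15542 tested probes, by current name for 2802 and by synonym for 1299, and 2045 kept the scanner's name. Probe positions (mm7) were copied from the scanner output. The array that repeats a liver could not be identified: the highest residual correlation between arrays of opposite dye was 0.12 with CA and 0.07 with UDCA, so all arrays were kept. Replicate numbers did not pair the diets. The genes, gene lists and tests were chosen with earlier results of these data known. From each macrophage list the 3 called genes with the largest change with CA were named, from each list of another cell type 2, besides Csf1, Il34, Tyrobp, Tlr4, Ly96, Lbp and Abcb4. Alternatives were other background corrections, normalizations, filters and flags, the slide and the replicate number as blocks, no dye effect, each diet alone, the mean over probes, and leaving out each array. Left out were sequences and annotation on the build of the probes, which were not used here.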

Additional observations from a re-analysis of the deposited data

Results flagged for a closer look

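The following 6 genes gave different ratios to wild type with CA and with UDCA by the test of the difference itself (limma, CA-fed minus UDCA-fed knockout ratio). The difference was 2.54 for Ms4a6b, whose measured CA arrays all lay above its UDCA arrays, and 2.07 for Clec7a, for which the same held. Such separation held for 7.11% of tested genes with 12 values. The difference was 1.23 for Cd14 and 1.14 for Csf1r, with overlapping arrays. It was 0.69 for Cd68 and 0.58 for Msr1, the 2 smallest. No array stood apart from its group by Dixon's test in any of the 19 combinations of gene and diet with at least 4 values.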

How the results depend on the processing

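The 8, 9 and 6 genes called higher for CA, for UDCA and for the difference stayed within 1.5 times of those numbers under every alternative tried, except that median centring gave 2 in the difference. Leaving out single arrays gave 7 to 10, 9 to 10 and 5 to 7 genes, and the replicate block gave 8, 9 and 5, with Mpeg1 in CA (0.44, adjusted p = 0.245) and Cd68 in the difference (0.69, adjusted p = 0.0602) no longer called and Gpnmb called in CA (0.42, adjusted p = 0.0389) and lower in the difference (-0.70, adjusted p = 0.0420). Same-numbered arrays deviated together with correlations from -0.28 to 0.46 over the 6 numbers, and after the dye effect from -0.58 to 0.12, so the numbers are not taken as pairs. The fixed slide block gave 9, 7 and 5 genes.

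Over all probes, median centring gave 4939 higher and 1202 lower with CA, 1866 and 110 with UDCA, and 689 and 126 in the difference, where loess gave 7416 and 5503, 3266 and 1820, and 3559 and 2281. The strict filter, which tests fewer probes, gave 3856 higher with CA and 1893 in the difference, and Agilent's processed signals 2833 lower with UDCA. In the difference, the fixed slide block gave 1339 higher and 639 lower, and the deposited series values gave 3635 lower. Without UDCA arrays 4 and 5, a setting added later with fewer samples, there were 1189 lower with UDCA and, in the difference, 2295 higher and 1279 lower. Leaving out single arrays moved these totals by no more than 1.5 times. For the slide block, the processed signals and the series table the cause was not tested.

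Among single genes, sign changes came in values that the fit had not called. Some reversed values were called themselves, all in the difference. These were Lyz1 with saturated values missing (adjusted p = 0.0173) and in the series table (adjusted p = 0.000133), and Lyz2 on the unsaturated probe (adjusted p = 0.00477). In the difference, Lyz2 gave 0.059 with the fixed slide block, 0.31 as the mean over probes and 1.21 on the unsaturated probe. Lyz1 gave 0.70 with saturated values missing, 0.95 in the series table, 0.24 with the slide block, 0.24 without CA array 4, 0.046 without UDCA array 6 (single arrays left out, -0.22 to 0.24), 0.13 without UDCA arrays 4 and 5, and 0.32 without CA array 4 and UDCA array 6. Mpeg1 gave 0.43 with median centring, 0.13 in the series table, 0.0037 without CA array 6 (single arrays left out, -0.47 to 0.0037), 0.096 as the mean over probes and 0.36 on the unsaturated probe. Agilent's processed signals gave -0.041 for Trem2, -0.0027 for Ctsk and -0.57 for Itgax. Col1a1 gave 0.36 in the series table and 0.88 with the slide block, Ttr -0.031 with median centring and -0.079 with the slide block, and S100a9 -0.11 without UDCA arrays 4 and 5. With UDCA, Ch25h gave -0.25 without array 6 (single arrays left out, -0.25 to 0.80) and -0.24 without CA array 4 as well. Jchain gave -0.087 (-0.087 to 0.16) and -0.082 in these settings, Clec4f 0.27 with median centring and 0.010 without array 3 (-0.35 to 0.010), Il34 -0.083 without arrays 4 and 5, and Oit3 0.17 with median centring. The causes were not tested. For the 10 genes, 773 other values kept direction and side of the threshold, 30 lost a call and 35 gained one.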
